A study of Sus scrofa with 11 samples.

Results

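DNA damage sensing and repair genes were followed in pig liver after irradiation. The list holds 55 genes, chosen by name for their known roles, from damage signalling through homologous recombination, end joining, excision repair, mismatch repair and the Fanconi pathway to direct reversal. In the deposited table of 12505 genes, 45 of the 55 were found by symbol, and 43 of these reached 1 FPKM (fragments per kilobase of transcript, scaled to the mapped fragments of each library) in at least 2 libraries and were tested among 11644 genes. RNF168, XRCC4, OGG1, ERCC5, ERCC6, ERCC1, FANCI, FEN1, BLM and RAD51C were not analysed here. BRCA1 and BARD1, partner subunits of a ubiquitin ligase that works in homologous recombination, were below that level: BRCA1 reached 1.56 FPKM in 1 library at 40 Gy and BARD1 reached 1.07 in 1 library at 30 Gy, and neither passed 1 FPKM elsewhere.

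The series holds 11 RNA libraries from wild-type pigs (Sus scrofa): 2 controls labelled day 0, and 3 libraries at each of 20, 30 and 40 Gy of irradiation, all labelled day 35. Every irradiated library thus differs from the controls in day as well as in dose, and these 2 factors cannot be told apart; only the comparison between doses is free of it. The labels give liver as tissue and hepatocyte as cell type, give no age, sex or strain for the groups, do not say whether the controls were untreated or sham animals, and do not say whether libraries of 1 group stem from different animals. The p-values therefore reflect only how far these libraries lie from each other, which may be technical.

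Ionising radiation breaks both strands of DNA, nicks single strands and oxidises bases. The kinases ATM, ATR and DNA-PK sense such damage, and the breaks are then joined end to end through the Ku proteins or copied from the sister strand by homologous recombination, which serves cells that are replicating. Damaged bases are cut out by excision repair, and most hepatocytes of an adult liver do not divide. Many repair enzymes are controlled after their mRNA is made, by phosphorylation, ubiquitination and recruitment to the lesion.

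Depth was unknown because the table holds FPKM without counts, and 10236 to 10866 genes per library were at 1 FPKM or more. The libraries did not all behave as separate samples. Across 8970 genes at 1 FPKM or more in every library, 30Gy-1 and 30Gy-2 differed with an SD of the log2 ratio of 0.191, and 20Gy-3 and 30Gy-3, from different doses, with 0.196, while the other 53 pairs gave 0.339 to 1.04. Whether a library was repeated or mixed up in either pair cannot be settled from FPKM, which touches every comparison of doses. The first pair is counted as 1 sample in every mean ± SD, so n = 2 at 30 Gy, but the tests treat all 11 libraries as samples. With that pair averaged in the fit, none of the calls against control remained, and 3 were made between 40 Gy and the other doses. The library 40Gy-1 stood apart from 40Gy-2 and 40Gy-3. Hepatocyte markers were all present (10 of 10), with summed FPKM of 49420 to 79490 in controls, 51520 to 61230 at 20 Gy, 57230 to 66800 at 30 Gy and 32600 to 38840 at 40 Gy. That sum follows its most abundant members and hides others: ALB was at 7050 to 10811 FPKM at 40 Gy against 27027 and 42547 in controls, while FGB was at 14372 and 16233 in 40Gy-2 and 40Gy-3 against 4731 and 9444, and TAT at 2427 and 2026 against 261 and 302. Markers of macrophages, lymphocytes, stellate cells, endothelium, bile duct and proliferating cells were also found, none of them at 0 in every library, so the RNA was not of hepatocytes alone. In such bulk RNA, fewer cells of a type and less RNA per cell cannot be told apart.

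Few repair genes passed the test. Against the controls, 1 of 43 was called at 20 Gy, where 4.23% of all genes tested were called (limma on log2(FPKM + 1), adjusted p under 0.05). None of 43 was called at 30 Gy against a background of 3.03%, with 4 at an unadjusted p under 0.05. At 40 Gy 1 of 43 was called (background 7.39%) and 1 for the mean of the 3 doses (background 4.71%). The called genes were RAD50, lower at 20 Gy and over the mean of doses, and NBN, higher at 40 Gy. These 4 comparisons share the 2 controls.

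Setting 40 Gy against the mean of 20 and 30 Gy gave 6 calls of 43 (14.0%), below the 21.5% of all genes. NBN, APEX1, FANCD2 and MSH6 were higher at 40 Gy, and DCLRE1C and FANCL were lower. FANCD2 reached 1 FPKM only in libraries at 40 Gy, so it could enter the test only by being high there, and its call is not support. DCLRE1C reached 1 FPKM at 20 and 30 Gy and elsewhere only in 40Gy-1. It could enter only by being high at 20 and 30 Gy, and its call is not support either. The median log2 difference of the 43 genes lay close to 0 in each comparison: 0.08 at 20 Gy, 0.04 at 30 Gy, 0.0017 at 40 Gy, 0.05 for the mean of doses and -0.04 between 40 Gy and the other doses, where all genes tested gave -0.03, -0.02, 0.06, 0.01 and 0.07. The repair genes also had a lower spread within groups, with a median SD of 0.224 on the log2(FPKM + 1) scale against 0.288 for all genes. This scale narrows differences of low genes, and the sets were not matched for level. The median standard error of a change was 0.216 for a dose against control, 0.185 for the mean of doses and 0.167 between 40 Gy and the other doses.

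**Figure D1:**
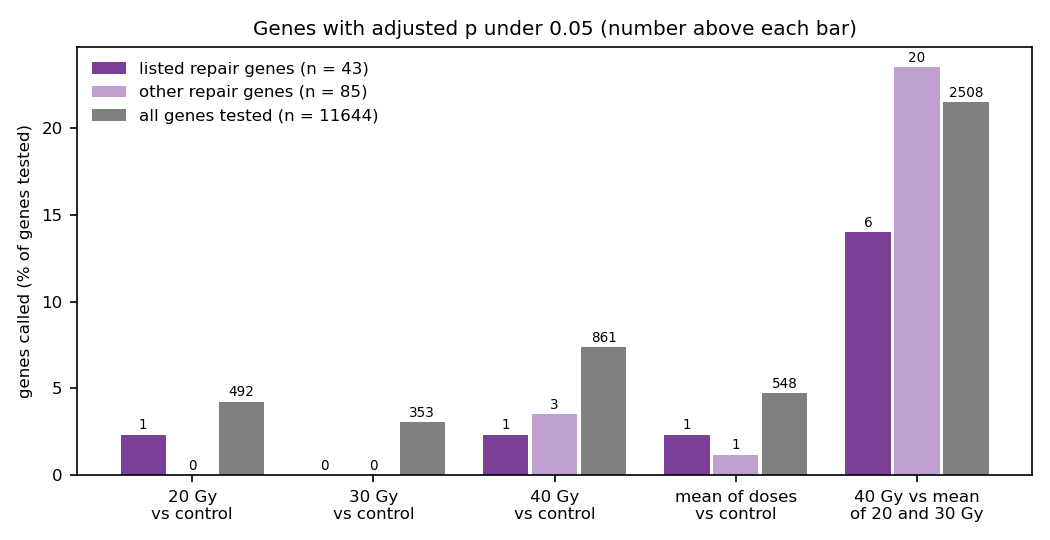
Percent of genes called at an adjusted p under 0.05 (vertical axis) in each of the 5 comparisons (horizontal axis), for the 43 listed repair genes, 85 other repair genes and all 11644 genes tested, with the number called above each bar. The listed genes were called in 0 to 6 cases, below the share of all genes in each comparison.

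**Figure D2:**
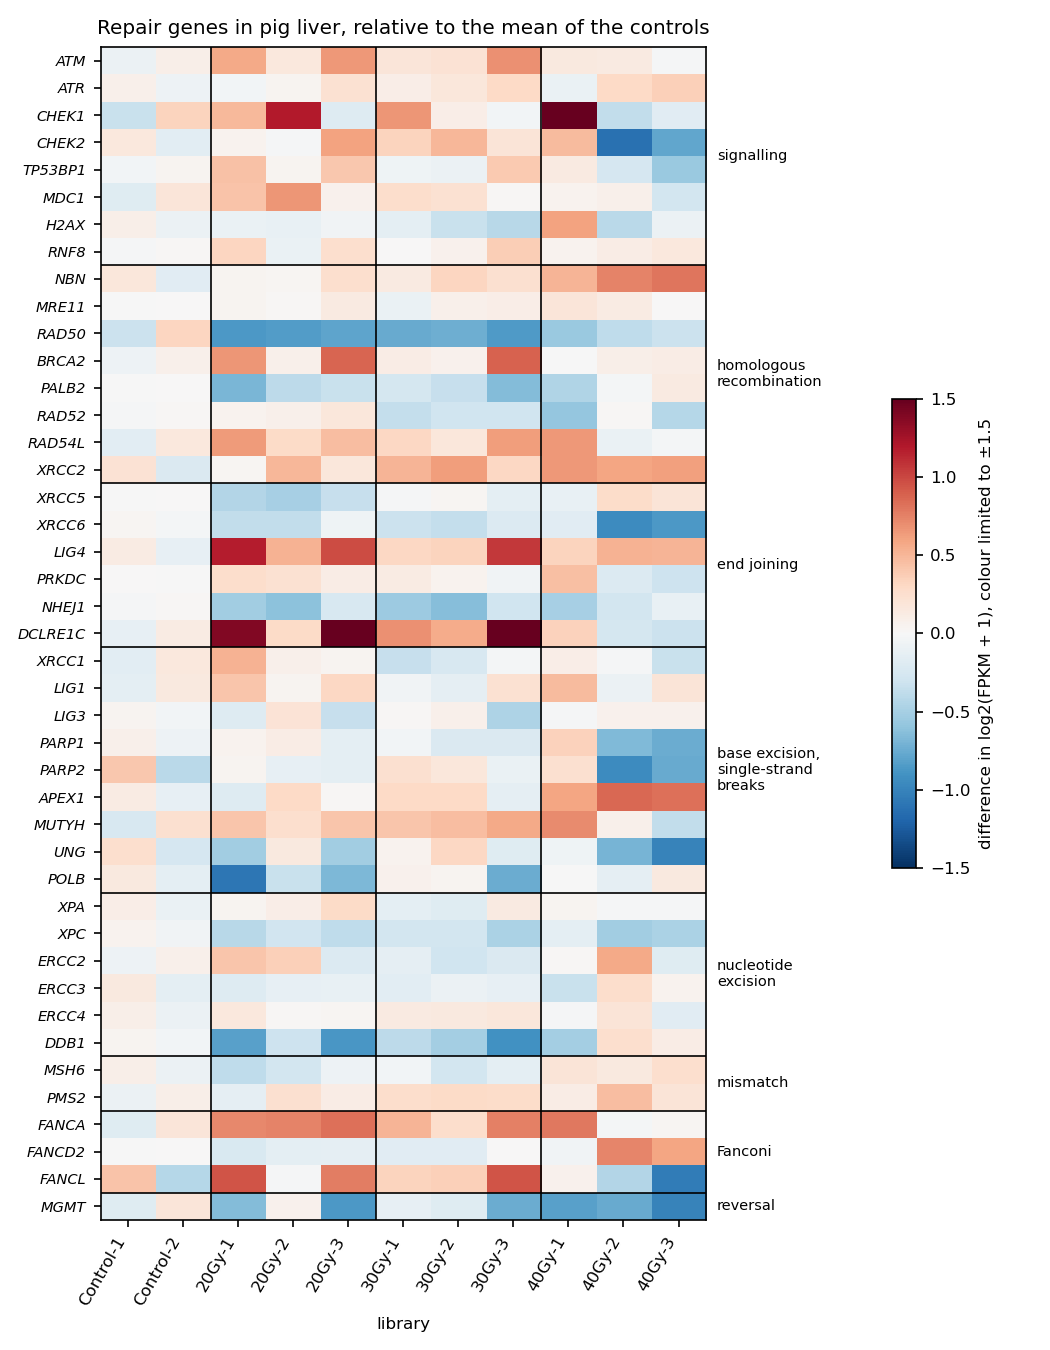
Each cell gives the difference in log2(FPKM + 1) between a library (columns) and the mean of the 2 controls for 1 of 43 repair genes (rows, grouped by pathway), with colours limited to ±1.5. RAD50 was lower in all 3 libraries at 20 Gy, and 20Gy-1, 20Gy-3 and 30Gy-3 share high values of DCLRE1C and LIG4.

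Damage signalling genes gave no call among 8 tested in any of the 5 comparisons, where 3.03% to 21.5% of all genes were called. With 1 to 9 genes tested per class, such counts do not show a difference between pathways. The class holds the kinases ATM, ATR, CHEK1 and CHEK2, the histone variant H2AX that ATM phosphorylates at breaks, its reader MDC1, the ubiquitin ligase RNF8 and TP53BP1, which steers breaks to end joining. ATM had the lowest adjusted p of the class for the mean of doses. Its level was 1.20 and 1.47 FPKM in the controls, 2.47, 1.59 and 2.66 at 20 Gy, 1.64, 1.71 and 2.74 at 30 Gy and 1.59, 1.57 and 1.31 at 40 Gy. The 6 libraries at 20 and 30 Gy were all above both controls, whereas 40Gy-3 lay between them. The mean of doses differed from control by 0.30 (SE 0.18, adjusted p = 0.386, limma), and that comparison stayed uncalled under all 18 alternatives. Within the class, the log2 change for the mean of doses ran from -0.12 for H2AX to 0.35 for CHEK1, the gene with the widest spread of all 43.

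CHEK1, CHEK2 and H2AX are described further because of their spread, a choice made after their values were seen. CHEK1, the kinase that slows replication after ATR is activated, was at 0.72 and 1.75 FPKM in the controls, 2.04, 3.96 and 0.897 at 20 Gy, 2.44, 1.32 and 1.11 at 30 Gy and 5.24, 0.682 and 0.935 at 40 Gy. CHEK2, the kinase downstream of ATM, was at 1.63 and 1.10 in the controls, 1.31 to 2.56 at 20 and 30 Gy and 2.27 in 40Gy-1, but 0.0821 and 0.371 in the remaining libraries at 40 Gy. H2AX was at 16.5 FPKM in 40Gy-1 and at 7.60 to 11.2 in the other 10 libraries. In each of these genes 40Gy-1 was the highest of its group, and the libraries at 20 Gy also spread widely for CHEK1. TP53BP1 ran from 0.614 FPKM in 40Gy-3 to 2.22 in 20Gy-1.

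**Figure D3:**
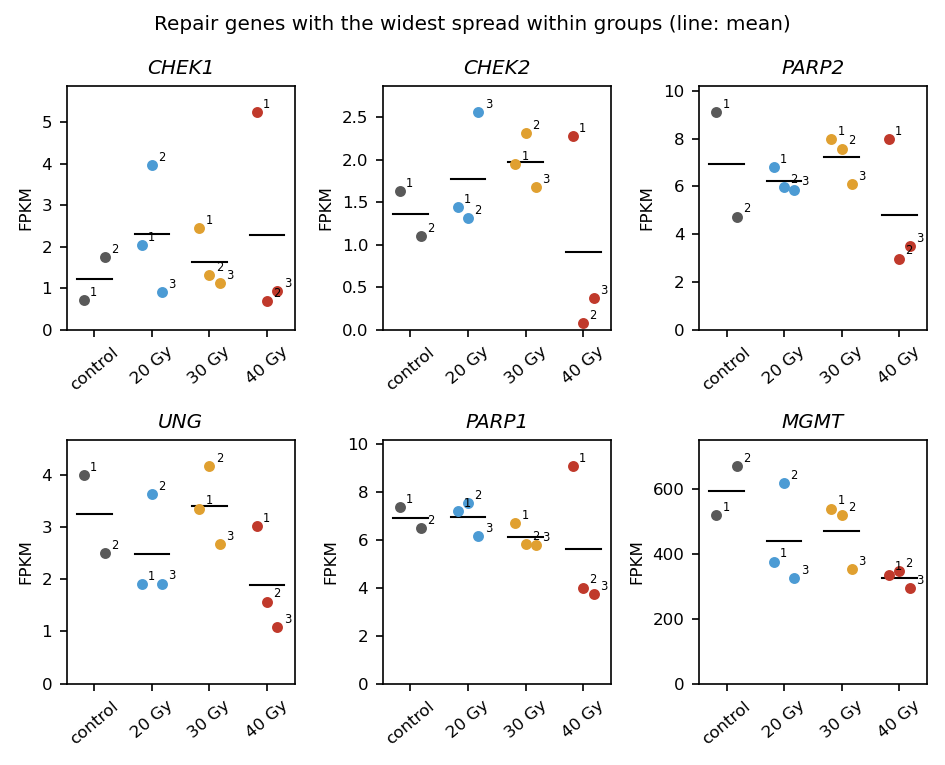
FPKM (vertical axes, from 0) in each library, numbered by replicate, by group (horizontal axes) for CHEK1, CHEK2, PARP2, UNG, PARP1 and MGMT, which had the widest spread within groups among repair genes with no call; lines are the means of the libraries shown. In CHEK1, CHEK2, PARP1 and PARP2, 40Gy-1 lies above the other 2 libraries at 40 Gy, for PARP1 at 9.06 against 4.001 and 3.72.

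Of 8 genes of homologous recombination tested, 1 was called in each of 4 comparisons (4.23% to 21.5% of all genes), either RAD50 or NBN. Their products form the MRN complex with MRE11, which holds broken ends together and activates ATM. RAD50 (chr2:134844460-134939188, Sscrofa11.1) was at 7.48 and 12.3 FPKM in the controls, 4.85, 4.94 and 5.13 at 20 Gy, 5.30, 5.38 and 4.91 at 30 Gy and 6.23, 7.20 and 7.53 at 40 Gy. All 6 libraries at 20 and 30 Gy were below both controls, and at 40 Gy only 40Gy-3 exceeded the lower control. The group means were 9.91 ± 3.44 (SD, n = 2), 4.97 ± 0.147 (n = 3), 5.13 ± 0.3 (n = 2) and 6.99 ± 0.678 FPKM (n = 3). At 20 Gy RAD50 fell by 0.83 in log2(FPKM + 1), with SE 0.195 (adjusted p = 0.041, limma), 1.78-fold on the FPKM + 1 scale, and by 0.68 over the mean of doses (SE 0.167, adjusted p = 0.0483, limma). At 30 Gy its change was -0.78 (adjusted p = 0.0643, limma) and at 40 Gy -0.42 (adjusted p = 0.219). The 20 Gy call was lost under 14 of 19 alternatives, with adjusted p from 0.018 to 0.257, and without Control-2, the higher control, the change was at its smallest, -0.51. The summed FPKM of 9 endothelial markers had a similar order, at 288 and 341 in the controls, 119 to 147 at 20 and 30 Gy and 126, 236 and 207 at 40 Gy. That sum follows CLEC4G, its most abundant member, at 206 and 263 FPKM in the controls and 47.7 to 95.7 at 20 and 30 Gy. Only LYVE1 among the 9 was called lower in the 2 comparisons that called RAD50 (adjusted p = 0.0243 and 0.0316, limma). EMCN rose there without a call (0.30 and 0.53), as did PECAM1 (0.08 and 0.05), and ENG for the mean of doses (0.05). The remaining markers fell without a call. The part of endothelial cells in the RAD50 values was not tested. Both RAD50 calls were lost on leaving out any 1 library other than Control-1 and 40Gy-1. The gene overlaps SLC22A5, IL5 and KIF3A in the annotation, so reads may be mixed where strand was not kept.

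NBN (chr4:46787664-46854331), the nibrin subunit that brings ATM to the complex, was at 6.97 and 5.26 FPKM in the controls, 6.26, 6.23 and 7.44 at 20 Gy, 6.73, 7.85 and 7.35 at 30 Gy and 9.04, 10.8 and 11.4 at 40 Gy. The 3 libraries at 40 Gy were above the other 8. NBN rose at 40 Gy against control by 0.69 in log2(FPKM + 1), with SE 0.176 (adjusted p = 0.0431, limma), 1.61-fold on the FPKM + 1 scale, and against the mean of 20 and 30 Gy by 0.52 (SE 0.136, adjusted p = 0.0248, limma). The first call was lost under 16 of 19 alternatives (adjusted p 0.0109 to 0.246) and the second under 7 of 19 (0.00747 to 0.196), without a change of sign. Among single libraries the first held only without 40Gy-1, and the second was lost without 20Gy-1, 30Gy-1, 40Gy-2 or 40Gy-3. MRE11, the nuclease of the same complex, stayed between 0.822 and 1.23 FPKM in all 11 libraries. It had the smallest spread within groups of the 43 genes (SD 0.0826 of log2(FPKM + 1)), on a scale that narrows differences of low genes. In FPKM itself its 9 irradiated libraries differed up to 1.49-fold, against 1.32-fold for XPC. The ratio of NBN to RAD50 in FPKM was 0.932 and 0.426 in the controls and 1.26 to 1.51 in the 9 irradiated libraries. The ratio of MRE11 to RAD50 was also lower in the controls, at 0.128 and 0.0778 against 0.129 to 0.224, and RAD50 is the denominator of both.

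The other 5 genes of this class passed no test. BRCA2, a mediator of strand exchange, was at 0.801, 1.09 and 1.10 FPKM in 20Gy-1, 20Gy-3 and 30Gy-3, and at 0.0846 to 0.232 in the other 8 libraries. It passed the minimum of 1 FPKM only through 20Gy-3 and 30Gy-3, the near-identical pair. PALB2, the bridge between BRCA1 and BRCA2, was at 1.66 and 1.69 FPKM in the controls, 0.665 to 1.23 at 20 and 30 Gy, and 0.961, 1.63 and 1.95 at 40 Gy. XRCC2, which also acts in strand exchange, had the largest positive change of the class for the mean of doses, 0.45 (adjusted p = 0.179, limma), at levels of 0.229 to 1.25 FPKM. RAD52, an annealing protein, was above both controls in all 3 libraries at 20 Gy (1.85, 1.90 and 2.1 against 1.71 and 1.79) and below them in all 3 at 30 Gy (1.14, 1.24 and 1.23). RAD54L, the motor protein of the strand search, was at 0.331 to 1.32 FPKM. XRCC2 and RAD54L reached 1 FPKM only in irradiated libraries, so they could be tested only by being high there.

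**Figure D4:**
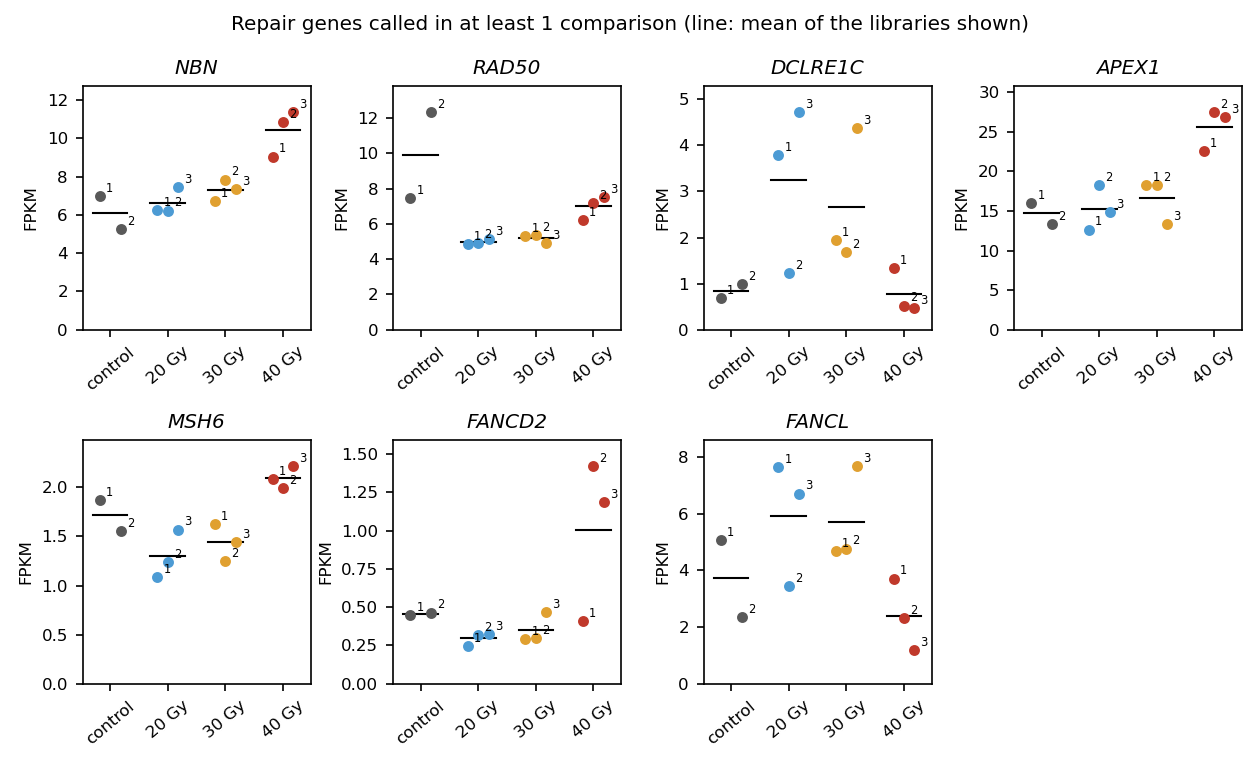
FPKM (vertical axes, from 0) in each library, numbered by replicate, by group (horizontal axes) for the 7 repair genes called in at least 1 comparison; lines are the means of the libraries shown. NBN and APEX1 are higher in every library at 40 Gy than in any other, and RAD50 is lower in every library at 20 and 30 Gy than in either control.

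End joining gave 1 call among 6 genes, DCLRE1C between 40 Gy and the other doses, where 21.5% of all genes were called. DCLRE1C encodes Artemis, the nuclease that opens and trims ends with DNA-PK. At chr10:46820016-46863848, it was at 0.681 and 0.993 FPKM in the controls, 3.80, 1.23 and 4.72 at 20 Gy, 1.95, 1.68 and 4.37 at 30 Gy and 1.33, 0.522 and 0.464 at 40 Gy. All 6 libraries at 20 and 30 Gy exceeded the controls, but 40Gy-1 exceeded 20Gy-2, so the doses overlap. Of the other libraries only 40Gy-1 reached 1 FPKM, so DCLRE1C could enter the test only by being high at 20 and 30 Gy. Its call is not read as support. DCLRE1C fell by 1.10 at 40 Gy against the mean of 20 and 30 Gy (SE 0.324, adjusted p = 0.0378, limma), 2.14-fold on the FPKM + 1 scale, the largest change among the called repair genes. Against control its change was 1.11 at 20 Gy (adjusted p = 0.157) and 0.93 at 30 Gy (adjusted p = 0.303, limma), neither called. The call was lost under 11 of 19 alternatives (adjusted p 0.00936 to 0.246), among them the fits without either control, 20Gy-1, 20Gy-3, 30Gy-1, 30Gy-3, 40Gy-2 or 40Gy-3.

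The Ku subunits diverged in 2 libraries. XRCC6 (Ku70) was at 12.1 and 11.7 FPKM in the controls, 8.95 to 11.3 at 20 and 30 Gy, 10.4 in 40Gy-1, and 5.68 and 6.09 in 40Gy-2 and 40Gy-3. XRCC5 (Ku80), its partner in the ring that caps a broken end, was at 5.35 and 5.37 in the controls, 3.51 to 3.999 at 20 Gy, 4.75 to 5.47 at 30 Gy and 4.91, 6.72 and 6.30 at 40 Gy. The ratio of XRCC6 to XRCC5 was 2.26 and 2.17 in the controls and 1.66 to 2.82 in the 7 libraries up to 40Gy-1, but 0.845 and 0.968 in 40Gy-2 and 40Gy-3. LIG4, the ligase of end joining, was at 1.06 and 0.740 FPKM in the controls and at 1.35 to 3.28 in all 9 irradiated libraries, with a change of 0.64 for the mean of doses (adjusted p = 0.148, limma). NHEJ1, the XLF scaffold that aligns ends for LIG4, was at 2.97 and 3.07 in the controls and 1.59 to 2.73 in all 9 irradiated libraries (change -0.42, adjusted p = 0.177, limma). PRKDC, the catalytic subunit of DNA-PK, stayed between 1.74 and 3.67 FPKM.

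Separation without overlap between the controls and all 9 irradiated libraries was seen in 4 of the 43 genes (9.3%), against 13.3% of all genes tested. Of these LIG4 was higher and XRCC6, NHEJ1 and XPC were lower, and none was called for the mean of doses. Between 40 Gy and the 6 libraries at 20 and 30 Gy, 5 of 43 did not overlap (11.6%, background 23.8%): NBN, RAD50, APEX1 and MSH6 were higher and ATM was lower. For ATM the gap was very narrow, with 1.591 FPKM in 40Gy-1 against 1.595 in 20Gy-2.

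Base excision and single-strand break repair gave 1 call among 9 genes, between 40 Gy and the other doses, where 21.5% of all genes were called. APEX1 (chr7:78451845-78454938), the endonuclease that cuts the backbone where a base has been removed, was at 16.0 and 13.4 FPKM in the controls, 12.6, 18.2 and 14.8 at 20 Gy, 18.3, 18.3 and 13.3 at 30 Gy and 22.6, 27.5 and 26.8 at 40 Gy. Every library at 40 Gy was above every other library. The means were 14.7 ± 1.89 (SD, n = 2), 15.2 ± 2.82 (n = 3), 15.8 ± 3.52 (n = 2) and 25.6 ± 2.67 FPKM (n = 3). APEX1 rose at 40 Gy against the mean of 20 and 30 Gy by 0.66 in log2(FPKM + 1), with SE 0.167 (adjusted p = 0.0205, limma), 1.58-fold on the FPKM + 1 scale. Against control its change at 40 Gy was 0.76 (adjusted p = 0.0604, limma). The call held in 15 of 19 alternatives, more than for any other called gene, and was lost without 20Gy-3 and 30Gy-3, without 40Gy-2 and without 40Gy-3 (adjusted p up to 0.221). The gene overlaps OSGEP in the annotation.

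The other 8 genes of this class were not called. PARP1 and PARP2, which mark single-strand breaks with ADP-ribose chains, were lower in 40Gy-2 and 40Gy-3 (PARP1 at 4.001 and 3.72 FPKM, PARP2 at 2.98 and 3.51) than in the other 9 libraries (PARP1 at 5.78 to 9.06, PARP2 at 4.74 to 9.12). POLB, the polymerase that fills the gap, was at 33.8 and 27.5 FPKM in the controls, 13.8, 24.0 and 18.7 at 20 Gy, 31.9, 31.5 and 17.8 at 30 Gy and 27.6 to 33.9 at 40 Gy. Its 3 lowest values were those of 20Gy-1, 20Gy-3 and 30Gy-3. UNG, the glycosylase that removes uracil, ranged from 1.08 FPKM in 40Gy-3 to 4.16 in 30Gy-2. MUTYH, which removes adenine opposite oxidised guanine, had the largest positive change of the class for the mean of doses, 0.33 (adjusted p = 0.489, limma), and POLB the largest negative one, -0.30 (adjusted p = 0.547).

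Nucleotide excision repair gave no call among 6 genes in any comparison, against 3.03% to 21.5% of all genes. XPC, which recognises distorted DNA, was at 19.2 and 17.7 FPKM in the controls, 13.6, 14.8 and 13.9 at 20 Gy, 15.0, 15.0 and 13.0 at 30 Gy and 16.5, 12.5 and 13.0 at 40 Gy. All 9 irradiated libraries were below both controls. The change for the mean of doses was -0.36 (SE 0.146, adjusted p = 0.202, limma), with adjusted p of 0.0561 to 0.595 over 18 alternatives. The gene overlaps LSM3 and TMEM43 in the annotation. DDB1, the adaptor of the ubiquitin ligase that handles ultraviolet lesions, was at 37.2 and 35.01 FPKM in the controls, 20.0, 28.8 and 19.2 at 20 Gy, 27.4, 24.9 and 18.8 at 30 Gy and 25.1, 43.2 and 39.1 at 40 Gy. It had the most negative change of the class for the mean of doses, -0.44 (adjusted p = 0.334, limma), while ERCC4, a nuclease subunit, had the most positive one, 0.07 (adjusted p = 0.806).

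The mismatch class holds MSH6, which recognises mispaired bases, and PMS2, which nicks the new strand. MSH6 (chr3:92792590-92814154) was at 1.87 and 1.56 FPKM in the controls, 1.09, 1.24 and 1.57 at 20 Gy, 1.63, 1.25 and 1.44 at 30 Gy and 2.09, 1.996 and 2.22 at 40 Gy, where it exceeded all other libraries. It rose at 40 Gy against the mean of 20 and 30 Gy by 0.39 (SE 0.122, adjusted p = 0.0449, limma), a call lost under 14 of 19 alternatives (adjusted p 0.0368 to 0.233). Among single libraries it held only without 20Gy-3 or 40Gy-1. PMS2 was at 1.40 to 2.62 FPKM with no call. MSH6 overlaps FBXO11 in the annotation.

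Of the Fanconi genes, which act together on DNA crosslinks, FANCD2 and FANCL were called in opposite directions between 40 Gy and the other doses, and FANCA was not called. In that comparison 21.5% of all genes were called. FANCL (chr3:83136355-83436948), the ubiquitin ligase that modifies FANCD2, was at 5.08 and 2.35 FPKM in the controls, 7.65, 3.44 and 6.71 at 20 Gy, 4.67, 4.77 and 7.68 at 30 Gy and 3.71, 2.32 and 1.18 at 40 Gy. It fell by 1.03 at 40 Gy against the mean of 20 and 30 Gy (SE 0.31, adjusted p = 0.0402, limma), 2.04-fold on the FPKM + 1 scale, though 40Gy-1 overlapped 20Gy-2. FANCD2 (chr13:66241951-66308601), the substrate, was at 0.447 and 0.465 FPKM in the controls, 0.247 to 0.466 at 20 and 30 Gy, and 0.408, 1.42 and 1.19 at 40 Gy. It rose there by 0.56 (SE 0.173, adjusted p = 0.0429, limma), but passed the minimum only through 40Gy-2 and 40Gy-3, so its presence among the genes tested depended on the group where it was high. The FANCL call was lost under 10 of 19 alternatives (adjusted p 0.012 to 0.281) and the FANCD2 call under 15 of 19 (0.000877 to 0.244). Among single libraries the first held without either control, 20Gy-2 or 40Gy-1, and the second only without 40Gy-1. FANCA, a core subunit, was at 0.592 and 1.04 FPKM in the controls, 1.16 to 2.20 at 20 and 30 Gy and 2.11, 0.759 and 0.835 at 40 Gy (change for the mean of doses 0.51, adjusted p = 0.236, limma). FANCL overlaps VRK2 and FANCD2 overlaps EMC3 in the annotation.

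MGMT, which strips alkyl groups from guanine in a single suicidal step, was the most abundant of these transcripts per length, the only 1 of 43 with a mean above 100 FPKM. It was at 518 and 669 FPKM in the controls, 376, 617 and 325 at 20 Gy, 539, 519 and 351 at 30 Gy and 336, 347 and 294 at 40 Gy. All 3 libraries at 40 Gy were below both controls, as were 20Gy-1, 20Gy-3 and 30Gy-3. The change was -0.86 at 40 Gy (adjusted p = 0.12) and -0.56 for the mean of doses (SE 0.265, adjusted p = 0.268, limma), never called under 18 alternatives. Of the other genes, 4 had a mean of 10 to 100 FPKM (APEX1, POLB, XPC and DDB1), 33 of 1 to under 10 and 5 under 1 FPKM.

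**Figure D5:**
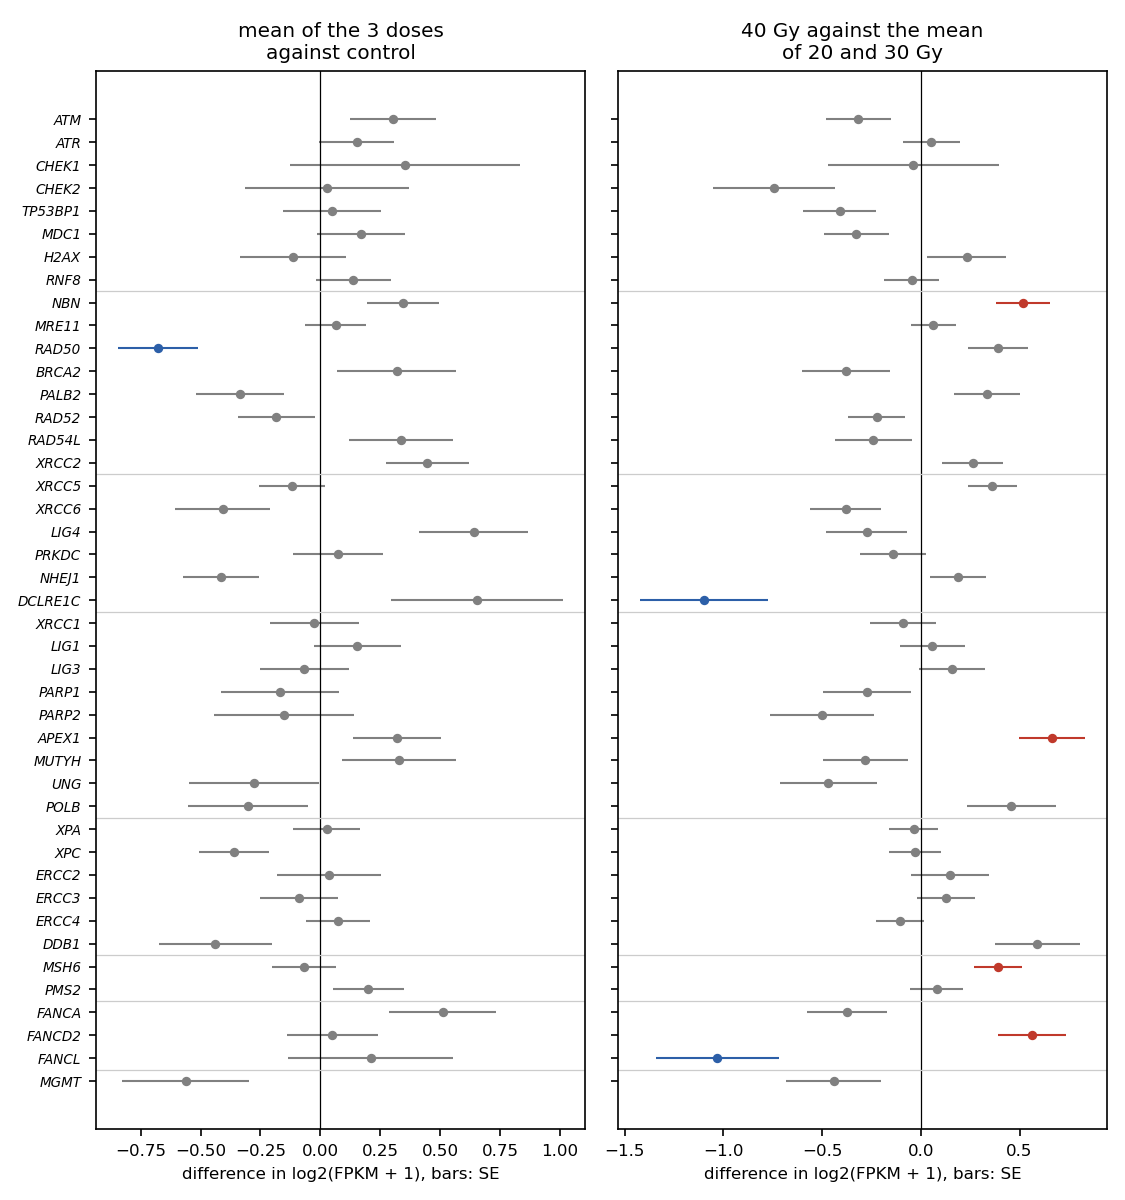
Differences in log2(FPKM + 1) with standard errors (horizontal axes) for the 43 repair genes (vertical axis, separated by pathway), for the mean of the 3 doses against control (left) and 40 Gy against the mean of 20 and 30 Gy (right); red is called higher, blue called lower and grey not called. On the left RAD50 is the only call, and on the right NBN, APEX1, MSH6 and FANCD2 are called higher and DCLRE1C and FANCL lower.

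The 6 libraries at the lower doses fell apart in the same way for several genes. In 20Gy-1, 20Gy-3 and 30Gy-3, against 20Gy-2, 30Gy-1 and 30Gy-2, DCLRE1C was at 3.80 to 4.72 against 1.23 to 1.95 FPKM, LIG4 at 2.74 to 3.28 against 1.35 to 1.72, ATM at 2.47 to 2.74 against 1.59 to 1.71, and FANCL at 6.71 to 7.68 against 3.44 to 4.77. The order was the opposite for POLB (13.8 to 18.7 against 24.0 to 31.9), DDB1 (18.8 to 20.0 against 24.9 to 28.8) and MGMT (325 to 376 against 519 to 617). These genes were picked after their values were seen, and the sets cut across dose, so no test was made. The summed FPKM of 10 macrophage markers differed in the same way, at 541 to 613 against 928 to 1049. Of these markers CD14 overlapped between the sets, at 198 to 274 against 203 to 319 FPKM. The part of macrophages in the repair gene values was not tested.

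Leaving out 40Gy-1 moved the counts at 40 Gy more than leaving out any other library. Against control, 8 of 43 repair genes were then called (18.6%), against a background of 22.9%: NBN, FANCD2 and APEX1 higher, and XRCC6, PARP2, XPC, PARP1 and CHEK2 lower. Against the mean of 20 and 30 Gy, 20 of 43 were called (46.5%, background 39.8%), 8 higher and 12 lower. The higher genes were NBN, PALB2, FANCD2, DDB1, RAD50, XRCC5, MSH6 and APEX1, and the lower ones were CHEK2, PARP1, XRCC6, PARP2, FANCA, FANCL, DCLRE1C, PRKDC, MUTYH, TP53BP1, UNG and RAD54L. Without that library CHEK2 fell by 1.22 (SE 0.195, adjusted p = 0.00137, limma), XRCC6 by 0.62 (adjusted p = 0.00463) and PARP1 by 0.62 (adjusted p = 0.004), while FANCD2 rose by 0.80 (adjusted p = 0.000877) and DDB1 by 0.82 (adjusted p = 0.00934, limma). FANCD2 passed the minimum only through 40Gy-2 and 40Gy-3, so its calls in these fits are not support. Of the libraries kept, DCLRE1C reached 1 FPKM only at 20 and 30 Gy, and RAD54L only in 20Gy-1, 20Gy-3 and 30Gy-3. Their calls are not support either. Against control, leaving out 40Gy-1 also gave 3 calls at 20 Gy (FANCA, RAD50 and XRCC5), 1 at 30 Gy (RAD50) and 2 for the mean of doses (RAD50 and XRCC6), where 14.1%, 9.43% and 12.2% of all genes were called. The count of 6 against the mean of 20 and 30 Gy fell to 0 without 40Gy-2, without 40Gy-3 or without 20Gy-3 and 30Gy-3 together, to 1 without 20Gy-1 or 30Gy-1, to 2 without 30Gy-3 and to 3 without 20Gy-3 or 30Gy-2. In these fits the share of all genes called was 7.31%, 10.3% and 10.2% where the count was 0, and 14.0% to 16.1% in the others.

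Markers of other cells also set 40Gy-1 apart. The summed FPKM of 9 stellate cell and fibroblast markers was 402 in 40Gy-1 but 70.0 and 56.1 in 40Gy-2 and 40Gy-3, against 57.3 and 87.2 in controls and 153.8 to 238.7 at 20 and 30 Gy. For 7 of 12 T and NK cell markers found it was 52.8 against 16.8 and 14.3, with 21.7 to 22.3 in controls and 28.5 to 35.6 at the lower doses. The 14 of 20 proliferation markers found summed to 78.2 in 40Gy-1 against 54.9 and 50.6, with 35.8 to 37.5 in controls and 41.5 to 49.9 at the lower doses. Within this list MCM7 went the other way, at 19.4 FPKM in 40Gy-1 against 25.1 and 22.5, as did BIRC5, at 8.59 against 10.2 and 11.2. CCNB1 was at 1.99, between 1.81 and 2.17, and the rest were highest in 40Gy-1 within that group. Proliferation markers were called higher in 3 of 14 cases at 20 Gy (21.4%, background 4.23%), 2 at 30 Gy (14.3%, background 3.03%) and 4 at 40 Gy (28.6%, background 7.39%). The count was 3 for the mean of doses (21.4%, background 4.71%). Between 40 Gy and the other doses it was also 3, a share of 21.4% beside 21.5% of all genes. TOP2A and CCNB1 were called at each dose, PLK1 at 20 Gy and MCM6 at 40 Gy. All were under 1 FPKM in both controls, so they could be tested only by being high in irradiated libraries. The shares against control are therefore not read as support. Of the 14 markers, only MCM7, TYMS and BIRC5 reached 1 FPKM in a control. BIRC5 was the remaining call at 40 Gy and for the mean of doses. MCM4, a replicative helicase subunit named after its values were seen, was at 10.2 FPKM in 40Gy-1 against 1.24 and 1.39, the same order as CHEK1. Macrophage markers (10 of 10 found) summed to 1544 against 1066 and 928. Among them CD14 went the other way, at 354 FPKM in 40Gy-1 against 548 and 416, and CD163 hardly differed, at 76.3 against 74.4 and 72.5. The rest were higher in 40Gy-1. The endothelial sum was lower in 40Gy-1, at 126 against 236 and 207, through CLEC4G at 20.5 against 164 and 146 FPKM. KDR was also lower there, but PECAM1, CDH5, TEK, EMCN, CLDN5, ENG and LYVE1 were higher in 40Gy-1 than in 40Gy-2 and 40Gy-3. B and plasma cell markers (5 of 8 found) summed to 72.1 to 112 at 40 Gy against 41.1 to 47.2 in the other 8 libraries, carried by JCHAIN at 44.9 to 77.4 FPKM against 8.28 to 22.4. The B cell marker CD79A went the other way and was called lower at 40 Gy (change -0.99, adjusted p = 0.0159, limma). It was also called lower at 20 Gy (-0.81, adjusted p = 0.0473) and for the mean of doses (-0.80, adjusted p = 0.0258, limma). Between 40 Gy and the other doses it was not called (-0.28, adjusted p = 0.198, limma). The part of these cells in the repair gene values was not tested.

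Repair genes outside the list were taken from another list. Of 112 such genes 90 were found and 85 tested. Against control, 0, 0, 3 and 1 of the 85 were called at 20, 30 and 40 Gy and for the mean of doses. The shares were 0%, 0%, 3.53% and 1.18%, beside 4.23%, 3.03%, 7.39% and 4.71% of all genes. At 40 Gy against the mean of 20 and 30 Gy 20 were called (23.5%, background 21.5%), 9 higher and 11 lower. TIMELESS, a fork protection protein, fell by 1.13 for the mean of doses (SE 0.254, adjusted p = 0.0336, limma): it was at 44.1 and 34.7 FPKM in the controls, 15.5 to 27.1 at 20 and 30 Gy and 9.36, 8.50 and 15.5 at 40 Gy. RFC3, a subunit of the clamp loader, rose by 1.08 at 40 Gy against control (adjusted p = 0.0258), and RMI1, a partner of the BLM helicase, by 0.74 (adjusted p = 0.0348, limma). POLQ, the polymerase of alternative end joining, was at 0.319 to 1.31 FPKM at 20 and 30 Gy and at 0.00769 to 0.0468 at 40 Gy, and was listed at 0 in Control-1 and at 0.0262 in Control-2. It reached 1 FPKM only in 20Gy-3 and 30Gy-3, so it could be tested only by being high there, and its call at 40 Gy is not read as support. FANCE, a Fanconi core subunit, fell by 0.78 at 40 Gy against the mean of 20 and 30 Gy (adjusted p = 0.031, limma).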

How the data were processed

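RNA from 11 pig liver libraries was measured by sequencing (paired-end, Illumina, per the labels' protocols). The authors deposited 1 table of FPKM with 12505 genes. HISAT2, Cufflinks, HTSeq and the builds Sscrofa11.1 and mm10 stand in the submitters' processing notes, without roles. Their annotation and strand setting: not given in the sources used here. As values are relative to each library's total, a few very abundant genes can shift all others. No whole-read steps were found among 5 to 51 genes under 0.1 FPKM per pair of libraries, so depth is unknown, and precision rests on replicate scatter.

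Symbols were found for 10561 IDs. Coordinates are those of the RefSeq gene table of Sscrofa11.1, matched by symbol. Genes with at least 1 FPKM in 2 libraries (11644) were tested as log2(FPKM + 1), which understates changes of low genes, with 4 group means in limma 3.58.1 (R 4.3.3, eBayes with trend, 7 residual degrees of freedom), two-sided, with Benjamini-Hochberg adjustment over all genes tested, after tests on simulated data. The genes, lists and tests were chosen with earlier results of these data known. Genes called in any comparison, and in a class without a call the gene with the lowest adjusted p for the mean of doses, are given in full; others by class. Outside the list, up to 6 called genes with the lowest adjusted p for the mean of doses are named, apart from 1 that is not reported here. Alternatives covered the pseudocount, the filter, quantile normalization, a replicate block, averaging the 30 Gy pair, leaving out 20Gy-3 and 30Gy-3, both, each library in turn, and fitting only the groups compared. A planned motif search of promoters was not run, and promoter sequences were not used here.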

Additional observations from a re-analysis of the deposited data

Results flagged for a closer look

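NBN, APEX1, FANCD2, MSH6, FANCL and DCLRE1C differed between 40 Gy and the mean of 20 and 30 Gy by a test of that difference itself (limma, adjusted over all genes tested). On the log2(FPKM + 1) scale the differences were 0.52 for NBN, 0.66 for APEX1, 0.56 for FANCD2 and 0.39 for MSH6, and -1.03 for FANCL and -1.10 for DCLRE1C. NBN, APEX1 and MSH6 were higher in 3 of 3 libraries at 40 Gy than in any at the lower doses, while FANCD2 was so in 40Gy-2 and 40Gy-3. FANCD2 reached 1 FPKM only in those libraries, so it could be tested only by being high there, and its test is no support. FANCL and DCLRE1C overlapped between doses. Outside 20 and 30 Gy, DCLRE1C reached 1 FPKM only in 40Gy-1, so its test is no support either. RAD52, an annealing protein of homologous recombination, was above both controls in all 3 libraries at 20 Gy and below both in all 3 at 30 Gy, where its change was -0.32; this difference between the doses was not tested. No group held the 4 libraries needed to look for outlying samples.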

How the results depend on the processing

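RAD50, NBN, APEX1, DCLRE1C, FANCD2, FANCL and MSH6 kept their sign under every alternative in the comparisons in which they were called; the genes outside the list, and those called only without 40Gy-1, were not followed over the alternatives. At 20 Gy against control the count of called repair genes went from 1 to 0 in a fit of only the groups compared, with the replicate block, with 30Gy-1 and 30Gy-2 averaged, on removing 20Gy-3 and 30Gy-3, and on doing both, and leaving out each library gave 0 to 3 (1.13% to 14.1% of all genes called). At 30 Gy the count of 0 became 0 to 1 on leaving out each library (RAD50 without Control-1 or 40Gy-1). At 40 Gy against control the same 5 settings gave 0 instead of 1, leaving out each library gave 0 to 8 (2.04% to 22.9% of all genes), and quantile normalization called APEX1 in place of NBN. For the mean of doses the count of 1 became 0 with no filter on low values, with the replicate block, on averaging 30Gy-1 and 30Gy-2, on removing 20Gy-3 and 30Gy-3 and on doing both, and 0 to 2 on leaving out each library (0.85% to 12.2% of all genes); a fit of only the groups compared is the same fit there. Between 40 Gy and the mean of 20 and 30 Gy the count of 6 became 3 with the pair averaged and 0 without 20Gy-3 and 30Gy-3, also with both, and 0 to 20 on leaving out each library, where 15.3%, 10.2%, 1.73% and 7.31% to 39.8% of all genes were called. The cause of these shifts was not tested, and where libraries were left out fewer samples entered the fit. At 20 and 40 Gy against control, 4.5% and 0.266% of all genes were called in the fits of only the groups compared. With the replicate block they were 3.43% and 6.91%, with the pair averaged 2.53% and 4.68%, and without 20Gy-3 and 30Gy-3 1.72% and 4.59%. For the mean of doses they were 4.34% with no filter, 3.78% with the block, 2.89% with the pair averaged and 2.49% without 20Gy-3 and 30Gy-3. Without 20Gy-2 the gene called at 20 Gy was DCLRE1C, and without 30Gy-3 it was LIG4. Leaving out a library leaves 1 control in some fits, which is then assumed to vary like the other groups. Whether the replicate numbers pair the libraries cannot be settled. The 15 pairs of libraries with the same number had correlations of their deviations from -0.616 to 0.645, 7 of them above 0.1. Of the 11 libraries, 5 were most alike to a library with their own number. Deviations within groups of 2 or 3 libraries are tied to each other, so these values cannot decide it. The replicate block gave 5 calls in place of 6 between 40 Gy and the lower doses, where 21.9% of all genes were called. Against control it gave 0, where 2.1% to 6.91% of all genes were called. With unknown depth, no detection limit can be given for genes under 1 FPKM.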
